A study of Homo sapiens with 8 samples.

Results

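MicroRNA (miRNA) levels were compared between multicellular spheroids (MCS) and monolayer (2D) cultures of DLD1, an established human colorectal adenocarcinoma cell line. Small RNA sequencing of 8 libraries covered 2 such cell lines, and the 4 libraries of DLD1 were used, 2 from 2D and 2 from MCS. The 2D cells were seeded at 35000 per 25 cm2 flask, and the MCS at 7000 per well in round-bottom plates of 96 wells coated with 1% agarose, which keeps cells from attaching. Both cultures were in RPMI medium with fetal bovine serum and were collected on day 6. The libraries of DLD1 were made with version 3 of the NEXTflex small RNA kit, and those of the other cell line with version 2. The DLD1 cultures are thus 1 cell line at 1 time point, with 2 libraries each that the labels call biological replicates, and seeding density and plate coating differ with the culture and cannot be told apart from it. Of 1780 miRNAs listed, 1492 had at least 1 count in DLD1, and the 346 whose library shares averaged 10 CPM or more (counts-per-million of the library total) over the 4 libraries were tested.

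A miRNA is a short RNA cut from a hairpin precursor. Either strand of the hairpin, the 5p or the 3p arm, can be loaded into an Argonaute protein, where bases 2 to 8 of the mature strand, the seed, pair with target messenger RNAs and repress them. MiRNAs with the same seed form a family and share many targets, and hairpins that lie close together are often cut from 1 primary transcript. In intestinal epithelium the miR-200 family holds down the ZEB factors that repress E-cadherin, miR-192 and miR-194 accompany enterocyte differentiation, and the let-7 family accumulates as cells leave the proliferative state.

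The 2D libraries held 15814475 and 25477315 miRNA counts (replicates 1 and 2), and the MCS libraries 18069336 and 20463716. The tested miRNAs took at least 99.8% of each library, and the 10 most abundant took 62.9% to 67.4%. Replicate 2 of MCS stood apart at the low end. It had 317 miRNAs at or above 10 CPM where the other libraries had 349 to 351, and its upper quartile over all miRNAs lay at 5.24 CPM against 7.28 to 8.20. The median absolute log2 difference between replicates was 0.21 in 2D and 0.33 in MCS, and that between the cultures was 0.56.

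The mature sequences below carry the main differences, with the seed in capitals. They come from RefSeq annotation of GRCh38, which held 312 of the 346 tested miRNAs. The let-7 family is shown because its 9 members share a seed and only some of them rose. Against let-7a-5p, let-7c-5p, let-7e-5p and let-7f-5p each differ at 1 base, let-7b-5p, let-7d-5p, let-7g-5p and miR-98-5p at 2, and let-7i-5p at 4.
let-7a-5p: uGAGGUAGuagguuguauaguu
let-7b-5p: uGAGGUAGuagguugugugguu
let-7c-5p: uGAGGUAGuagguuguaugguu
let-7d-5p: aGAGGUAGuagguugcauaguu
let-7e-5p: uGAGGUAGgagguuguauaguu
let-7f-5p: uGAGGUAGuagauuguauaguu
let-7g-5p: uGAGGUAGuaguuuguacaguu
let-7i-5p: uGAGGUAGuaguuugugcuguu
miR-98-5p: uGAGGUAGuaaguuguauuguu

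Pairs and trios of the same seed whose members changed by different amounts are shown next. miR-192-5p and miR-215-5p differ at 2 of 21 bases, miR-30a-5p and miR-30e-5p at 1 of 22, and miR-27a-3p and miR-27b-3p at 1 of 21.
miR-192-5p: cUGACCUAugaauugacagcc
miR-215-5p: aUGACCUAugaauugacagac
miR-30a-5p: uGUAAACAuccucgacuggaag
miR-30c-5p: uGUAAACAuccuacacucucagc
miR-30e-5p: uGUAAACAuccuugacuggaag
miR-27a-3p: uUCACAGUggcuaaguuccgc
miR-27b-3p: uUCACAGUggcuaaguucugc
miR-181a-5p: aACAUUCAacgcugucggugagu
miR-181b-5p: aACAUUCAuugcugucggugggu
miR-181d-5p: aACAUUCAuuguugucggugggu

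Further miRNAs among the largest rises and falls follow. miR-4488 and miR-4497 are short and rich in G and C, miR-9 is shown with both arms, and miR-372-3p and miR-373-3p share a seed.
miR-4488: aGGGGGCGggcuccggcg
miR-4497: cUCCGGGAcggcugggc
miR-1246: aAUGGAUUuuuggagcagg
miR-9-5p: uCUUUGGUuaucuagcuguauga
miR-9-3p: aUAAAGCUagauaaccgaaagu
miR-95-3p: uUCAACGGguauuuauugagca
miR-10b-3p: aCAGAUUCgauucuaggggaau
miR-7974: aGGCUGUGaugcucuccugagccc
miR-4454: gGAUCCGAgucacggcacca
miR-5100: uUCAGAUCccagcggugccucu
miR-222-5p: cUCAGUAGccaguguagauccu
miR-3187-3p: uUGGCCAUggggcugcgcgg
miR-139-5p: uCUACAGUgcacgugucuccagu
miR-372-3p: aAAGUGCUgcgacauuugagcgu
miR-373-3p: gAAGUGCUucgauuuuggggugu

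Last are pairs of tested miRNAs that are reverse complements of each other, because the counts of such a pair may hold the same reads. The longest complementary stretch was 24 bases for miR-7-5p and miR-3529-3p, 23 for miR-103a-3p and miR-103b, 21 for miR-203a-3p and miR-203b-5p, and 20 for miR-371a-5p and miR-371b-3p.
miR-7-5p: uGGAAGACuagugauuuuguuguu
miR-3529-3p: aACAACAAaaucacuagucuucca
miR-103a-3p: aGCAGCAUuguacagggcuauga
miR-103b: uCAUAGCCcuguacaaugcugcu
miR-203a-3p: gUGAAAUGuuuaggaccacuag
miR-203b-5p: uAGUGGUCcuaaacauuucaca
miR-371a-5p: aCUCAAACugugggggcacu
miR-371b-3p: aAGUGCCCccacaguuugagugc

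In MCS, most listed miRNAs of intestinal epithelium, the miR-23b/27b hairpins, miR-181a, miR-9 and 3 let-7 members rose, while the cluster of miR-371 to miR-373, miR-30a, miR-7, miR-222 and 5 of 10 tested arms from hairpins within CLCN5 fell. How many miRNAs rose and fell depended on how the libraries were scaled to each other. With edgeR's upper quartile factors over all miRNAs, and a call defined as a fold change of at least 1.5 with an adjusted p under 0.05, 143 of the 346 were called, a share of 41.3%. Of these, 103 were higher in MCS (29.8% of those tested) and 40 lower (11.6%). The same test gave 76 higher and 62 lower with TMM factors, 89 and 50 with RLE factors, 60 and 83 with library totals alone, and 49 and 93 with an upper quartile of the tested miRNAs alone. The total thus varied little, from 138 to 143, while the share of calls that were higher went from 72.0% down to 34.5%. The median log2 fold change over all tested miRNAs was 0.23 with the first scaling, and the others shifted single miRNAs by a median of -0.21 (TMM), -0.12 (RLE), -0.37 (totals) and -0.46 (upper quartile of the tested miRNAs). Without replicate 2 of 2D, 91 were called with the first scaling, 51 of them higher, and in 1 fit with the 4 libraries of the other cell line 30 were.

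**Figure D1:**
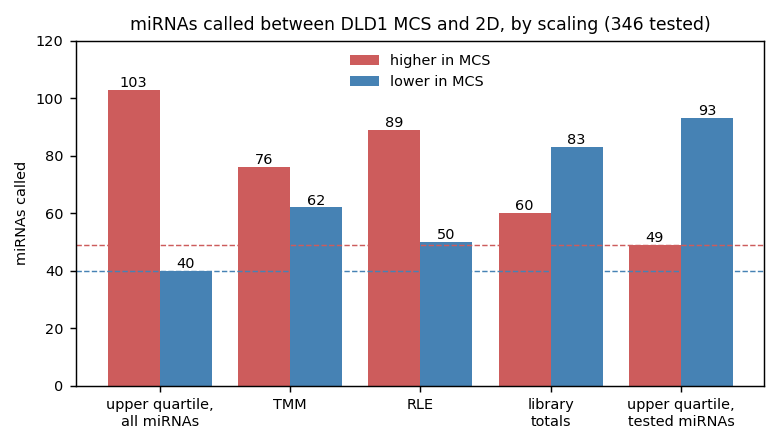
Bars give the number of miRNAs called higher (red) or lower (blue) in MCS than in 2D with each of 5 scalings of the 4 DLD1 libraries, out of 346 tested. Dashed lines mark the 49 higher and 40 lower that were called with every scaling. The higher bars exceed the lower ones with 3 scalings and fall below them with 2.

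A call that did not depend on this choice was made for 89 miRNAs (25.7%), of which 49 rose (14.2%) and 40 fell (11.6%). No miRNA was called in opposite directions by different scalings, 197 were called with at least 1 of them, and 149 with none. With edgeR upper quartile factors, 245 of the 346 (70.8%) had both MCS libraries above or both below the 2D libraries, 157 of them above (45.4%) and 88 below (25.4%). An exact 2-sided permutation test of 1 miRNA cannot go below p = 0.3333 with these 4 libraries, so every call rests on a spread pooled over miRNAs. The number called with every scaling was 27 when replicate 1 of MCS was left out and 31 when replicate 2 was. As these are bulk cultures, a change of level within cells and a change in the share of cells that hold a miRNA cannot be told apart. Below, values per library are normalized CPM with the upper quartile over all miRNAs, a miRNA is said to have risen or fallen only if it was called with that scaling, and those that lost the call with another scaling are marked.

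The 10 largest rises called with all 5 scalings included entries that resemble fragments of abundant structural RNA as well as well-studied miRNAs. miR-4488, which lies in GC-rich sequence, had 0.855 and 0.235 normalized CPM in 2D and 86.2 and 32.3 in MCS, a log2 fold change of 6.89 ± 0.46 (SE), with an edgeR adjusted p of at most 0.00044 over the scalings. miR-4497 followed with 1.25 and 0.471 in 2D and 44.6 and 19.6 in MCS. Both were nearly absent from 2D, and both were higher in replicate 1 of MCS than in replicate 2. With 1 library left out, the log2 fold change of miR-4488 lay between 5.85 and 7.84. miR-4488, miR-4497, miR-7641 and miR-10b-3p passed the filter on the mean only through MCS, so a difference was built into their testing. miR-1246, which matches part of the U2 small nuclear RNA, went from 50.5 and 55.5 to 734 and 413, and miR-7641, which matches ribosomal RNA, from 3.36 and 1.75 to 34.8 and 11.1. Over the 5 scalings alone, miR-7641 had the weakest support of these, with an edgeR adjusted p of up to 0.010.

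Both arms of miR-9, a miRNA best known from neural progenitors, rose by a similar amount. miR-9-5p was at 56.4 and 47.4 normalized CPM in 2D and 318 and 524 in MCS (log2 fold change 3.02 ± 0.26), and miR-9-3p at 13.6 and 20.7 against 106 and 188 (3.09 ± 0.29). miR-95-3p went from 12.5 and 18.3 to 101 and 140. miR-10b, encoded in the HOXD cluster, rose with both arms, its 5p arm from 350 and 326 to 1514 and 2020 and its 3p arm from 3.76 and 7.03 to 19.1 and 32.3. miR-192-5p rose from 737 and 645 to 3046 and 3960. Unlike miR-4488, miR-4497, miR-1246 and miR-7641, these miRNAs were higher in replicate 2 of MCS than in replicate 1 with this scaling. The order depends on it for some of them. By CPM of the library total, miR-192-5p was at 3155 in replicate 1 of MCS and 2954 in replicate 2.

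**Figure D2:**
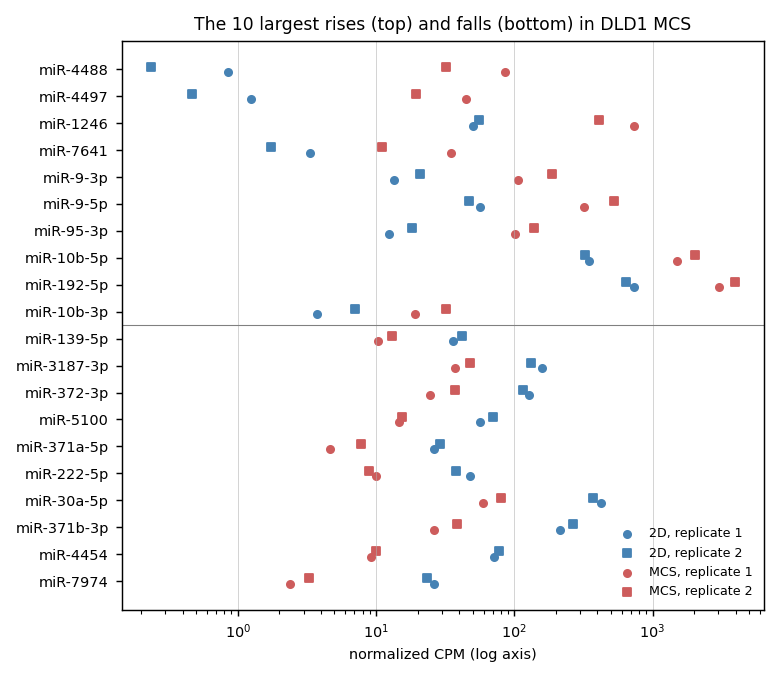
Points give the normalized CPM (log axis) of each library for the 10 largest rises and the 10 largest falls among the miRNAs called with all 5 scalings, with 2D in blue, MCS in red, replicate 1 as circles and replicate 2 as squares. The rows were chosen so that the libraries of the cultures do not overlap, and run from miR-4488 with a log2 fold change of 6.89 down to miR-7974 with -3.13.

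The 10 largest falls held 4 late-numbered entries next to miRNAs of known function. miR-7974 fell from 26.4 and 23.2 normalized CPM in 2D to 2.40 and 3.28 in MCS, a log2 fold change of -3.13 ± 0.39. miR-4454, which resembles a tRNA fragment, fell from 71.4 and 77.9 to 9.14 and 10.1, and miR-5100 from 57.0 and 69.8 to 14.7 and 15.4. miR-30a-5p, which has the same seed as members that rose, fell from 421 and 374 to 59.5 and 80.5 (-2.50 ± 0.26, edgeR adjusted p at most 7e-05 over the scalings). miR-222-5p, the scarce arm of a hairpin linked to proliferation, fell from 47.9 and 37.9 to 9.99 and 8.85. Of the cluster of miR-371 to miR-373, miR-371b-3p fell from 213 and 268 to 26.5 and 38.3, miR-371a-5p from 26.3 and 29.1 to 4.65 and 7.80, and miR-372-3p from 128 and 117 to 24.8 and 37.5. miR-3187-3p was at 158 and 132 in 2D and 37.6 and 47.8 in MCS, and miR-139-5p, from an intron of PDE2A, at 35.9 and 42.1 against 10.3 and 13.1. miR-7974, miR-4454, miR-222-5p and miR-371a-5p passed the filter only through 2D. All 20 of these rises and falls kept their call when any single library was left out.

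The most abundant miRNA, miR-21-5p, a miRNA that is high in many carcinomas, made up 28.7% and 25.2% of the counts in 2D and 12.0% and 15.1% in MCS. Its libraries did not overlap, yet its log2 fold change of -0.58 ± 0.38 was not called with this scaling. It was called lower with 3 of the 5 scalings, down to -1.08 with an upper quartile of the tested miRNAs alone. The other arm, miR-21-3p, fell from 1333 and 1220 normalized CPM to 449 and 769 (-1.07 ± 0.23) and was called with every scaling. miR-10a-5p, next in abundance, held 16.2% and 15.2% of the counts in 2D and 18.8% and 19.0% in MCS, and was not called (0.66 ± 0.38). miR-200c-3p rose from 5.36% and 6.53% to 9.41% and 9.23%, and miR-200b-3p from 3.24% and 3.66% to 6.19% and 6.33%. The call of miR-200c-3p was lost with an upper quartile of the tested miRNAs alone, where its log2 fold change was 0.58. That of miR-200b-3p was kept with every scaling. In 1 fit with all 8 libraries the call of miR-200b-3p was lost too. With 1 library left out its log2 fold change lay between 0.92 and 1.32. The calls of miR-200b-3p and miR-200c-3p were both lost when either replicate of 2D was left out. miR-26a-5p, miR-92a-3p and let-7g-5p were not called, and miR-30d-5p (0.72 ± 0.29) and let-7f-5p (0.69 ± 0.29) were called only with some scalings.

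Of the 9 tested let-7 and miR-98 5p arms, which hold down growth genes such as RAS and HMGA2, 4 rose and none fell, 3 of them with every scaling, where 29.8% of all tested miRNAs rose and 14.2% did so with every scaling. The median log2 fold change was 0.48 against 0.23 over all tested miRNAs. let-7b-5p went from 3770 and 3971 normalized CPM in 2D to 16320 and 16791 in MCS (2.10 ± 0.28). let-7c-5p was the scarcest member and went from 8.84 and 10.6 to 36.0 and 46.0 (2.07 ± 0.35). let-7a-5p rose from 10655 and 13782 to 31221 and 41486 (1.57 ± 0.30). These 3 were called with every scaling, and let-7f-5p only with some. The remaining members lay between 0.06 (let-7e-5p) and 0.48 (let-7g-5p). let-7e-5p, let-7g-5p, let-7i-5p and miR-98-5p had overlapping cultures, with let-7i-5p at 6733 and 7469 in 2D and 6394 and 8632 in MCS. let-7a, let-7b and let-7c differ among themselves by 1 or 2 bases near the 3′ end, and how the authors counted a read that fits several names is not given in the sources used here. let-7c-5p had fewer than 1% of the counts of let-7b-5p. Summed over the 9 members, the family rose by 0.95 ± 0.32, a call that was lost with other scalings. The opposite arms followed in part, since 2 of 7 rose, let-7a-3p (0.84 ± 0.23, lost with other scalings) and let-7f-2-3p (1.38 ± 0.35), and none fell, a share of rises near that of all tested miRNAs.

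Markers of colorectal epithelium were abundant in both cultures, and most of them were higher in MCS. The 10 miRNAs of this list, all of them tested, took 10.3% and 11.8% of the counts in 2D and 19.1% and 18.9% in MCS, and 8 rose while none fell, 6 of them with every scaling, beside the same 29.8% and 14.2% of all tested miRNAs. Of the miR-200 family 6 of 9 tested arms rose, and the median over the 9 was 0.98. miR-200a-3p went from 2588 and 2173 normalized CPM to 5452 and 6140 (1.28 ± 0.25), and miR-200b-5p from 377 and 476 to 806 and 1044 (1.12 ± 0.23). miR-200b-3p, miR-200a-3p and miR-200b-5p kept the call with every scaling, whereas miR-200c-3p, miR-141-3p and miR-200a-5p did not. miR-429, of the same chromosome 1 cluster as miR-200a and miR-200b, was not called (0.56 ± 0.25, edgeR adjusted p = 0.0566).

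miR-192-5p, miR-194-5p and miR-194-3p rose together by about 4- to 5-fold, and miR-215-5p did not. miR-194-5p went from 1471 and 1300 normalized CPM to 5321 and 6793 (2.13 ± 0.25), and miR-194-3p from 21.6 and 29.7 to 96.5 and 115 (2.04 ± 0.29). miR-215-5p was at 79.0 and 81.0 in 2D and 75.9 and 89.7 in MCS, a log2 fold change of 0.05 ± 0.27 whose cultures overlapped. The mature miR-194-5p comes from hairpins at 2 loci. MIR194-1 lies beside the hairpin of miR-215 on chromosome 1 (GRCh37, chr1:220291195-220291583 for both, GENCODE annotation lifted to that build), and the 3p arm that rose, miR-194-3p, is annotated to MIR194-2 alone. miR-192-5p comes from an exon of the MIR194-2 host transcript on chromosome 11 (chr11:64658609-64658718). miR-375, known from secretory and endocrine cells, went from 2125 and 2032 to 4505 and 5300 (1.24 ± 0.24). miR-203a-3p, which promotes epidermal differentiation, rose from 2869 and 2775 to 9421 and 14100.1 (2.06 ± 0.27), and miR-203b-5p and miR-203b-3p rose too, though miR-203b-5p is the reverse complement of miR-203a-3p. miR-192-5p, miR-194-5p, miR-375 and miR-203a-3p were called with every scaling.

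**Figure D3:**
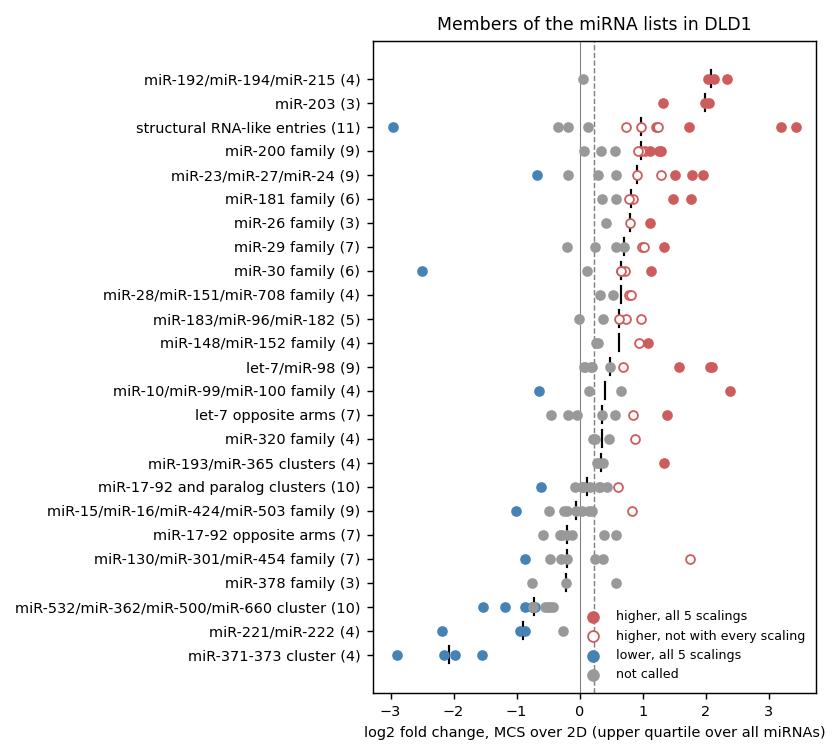
Each point is a tested miRNA placed by its log2 fold change of MCS over 2D with the upper quartile over all miRNAs, grouped by list with the number tested in brackets, and black ticks mark the median of a list. Filled red and blue points were called with all 5 scalings, open points lost the call with some, and grey points were not called. The dashed line marks the median of all tested miRNAs, 0.23, and the lists run from the cluster of miR-371 to miR-373 (median -2.07) to miR-192/194/215 (2.08).

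The 2 clusters that encode miR-23, miR-27 and miR-24 behaved differently. All 4 tested arms of miR-23b and miR-27b, in an intron of AOPEP (GRCh37, chr9:97847490-97847823), rose. For miR-23b-5p (1.30 ± 0.36) the call was lost with 2 other scalings and when replicate 1 of 2D or either replicate of MCS was left out, and it passed the filter only through MCS. miR-23b-3p went from 941 and 953 normalized CPM to 3700 and 3645 (1.96 ± 0.24), and miR-27b-3p from 4074 and 3891 to 12117 and 15240.2 (1.78 ± 0.27). Of the paralogous chromosome 19 cluster (chr19:13947254-13947473), miR-27a-3p rose (0.92 ± 0.23, lost with other scalings), miR-27a-5p fell from 229 and 253 to 125 and 177 (-0.67 ± 0.25, kept with every scaling but lost when replicate 2 of 2D or replicate 1 of MCS was left out), and miR-23a-3p was not called (0.57 ± 0.25). miR-24-3p, which both clusters can yield, was at 10390 and 8030 in 2D and 6328 and 9875 in MCS (-0.18 ± 0.26), with overlapping cultures, and 2 of the other scalings called it lower.

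Further lists had rises, to be read against the 29.8% of all tested miRNAs that rose. The miR-181 family, known from lymphocyte differentiation and Wnt signalling, had 4 of 6 tested arms up, 2 of them with every scaling. It was led by miR-181a-5p, from 1687 and 1389 normalized CPM to 4954 and 5524 (1.77 ± 0.25), while miR-181d-5p was not called (0.36 ± 0.35). The miR-29 family, which represses collagens and other matrix genes, had 3 of 7 up, 1 of them with every scaling, shares not far from those of all tested miRNAs. Its 3p arms were those that rose, and only miR-29c-3p (1.34 ± 0.29, from 32.8 and 31.6 to 78.3 and 84.7) kept the call with every scaling. Of the miR-26 family miR-26b-5p rose from 6402 and 7369 to 11622 and 18087 (1.11 ± 0.27) and miR-26a-5p, the more abundant, was not called. miR-148a-3p rose from 5890 and 4643 to 9275 and 13152 (1.09 ± 0.26), and miR-101-3p, a repressor of EZH2, from 1695 and 1248 to 3935 and 3900 (1.41 ± 0.24). The call of miR-26b-5p was lost when either replicate of 2D was left out, and that of miR-148a-3p when replicate 2 of 2D was.

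Some single miRNAs with well-known inducers stood among the rises. miR-210-3p, the main miRNA induced by hypoxia, went from 190.5 and 183 normalized CPM to 909 and 707 (2.11 ± 0.24), and its other arm was not called (0.64 ± 0.35). miR-146a-5p, a target of NF-κB signalling, rose from 47.3 and 57.5 to 191 and 262 (2.11 ± 0.26), and miR-146b-5p from 364 and 314 to 751 and 1094 (1.44 ± 0.24). miR-142-5p, typical of blood cells, rose from 23.2 and 21.5 to 85.4 and 118 (2.18 ± 0.30). miR-142-3p differed between its 2D replicates, at 28.2 and 11.1, and rose to 53.2 and 56.5 (1.49 ± 0.32). Its call was lost with the upper quartile of the tested miRNAs, and when replicate 2 of 2D or either replicate of MCS was left out. miR-34a-5p, induced by p53, was higher (0.88 ± 0.25), but its adjusted p reached 0.14 in edgeR with other scalings. The miR-183/96/182 cluster had 3 of 5 tested arms up, and none of them was called with every scaling.

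The miR-30 family split. miR-30a-5p fell to about 0.176 times its 2D level, as given above, while miR-30b-5p rose from 689 and 559 to 1364 and 1356 (1.12 ± 0.23). miR-30c-5p (0.66 ± 0.23), miR-30d-5p and miR-30e-3p rose with a call that was lost under other scalings, and miR-30e-5p was not called (0.11 ± 0.25). miR-30a and miR-30e share all but 1 base, and in 2D miR-30e-5p had 5450 and 3857 normalized CPM, well above miR-30a-5p. MIR30A and MIR30C2 both lie in LINC00472 on chromosome 6, while MIR30C1 and MIR30E lie in NFYC on chromosome 1. Since these seeds are identical, the level was also summed over the 3 members with a matched sequence, miR-30a, miR-30c and miR-30e. It changed by 0.20 ± 0.26 and was not called. The sum leaves out miR-30b-5p and miR-30d-5p and so does not stand for the whole family. miR-30d-5p alone held 1.78% and 1.85% of the counts in 2D and 2.26% and 2.28% in MCS.

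Among the falls were several arms of 3 clusters. All 4 tested arms of the cluster of miR-371 to miR-373, expressed in pluripotent cells and some tumours, fell with every scaling, with a median log2 fold change of -2.07. miR-373-3p was the weakest at 20.5 and 16.6 normalized CPM in 2D and 8.12 and 4.52 in MCS (-1.55 ± 0.36), and it passed the filter only through 2D. Together the 8 listed arms of this cluster held 446 and 522 CPM of the library total in 2D and 71.4 and 68.3 in MCS. The hairpins within introns of CLCN5 on the X chromosome had 10 tested arms, all of which had both MCS libraries below the 2D libraries, as had 25.4% of all tested miRNAs. Among them, miR-362-3p and miR-532-3p passed the filter only through 2D, so a difference was built into their testing. Of the 10 arms, 5 fell with every scaling, led by miR-500a-5p from 101 and 92.4 to 26.5 and 40.3 (-1.54 ± 0.29) and miR-501-5p from 57.2 and 45.2 to 26.3 and 18.6 (-1.19 ± 0.32). The other 5, among them miR-532-5p (-0.43 ± 0.23) and miR-660-5p (-0.47 ± 0.25), were not called with this scaling, and each of them was called lower with at least 2 of the other scalings. Arms of neighbouring CLCN5 hairpins, such as miR-500a, miR-501 and miR-502, are close in sequence and could share reads.

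miR-221 and miR-222, which repress the cell cycle inhibitor p27, had 3 of 4 tested arms down with every scaling and a median of -0.90. miR-222-3p fell from 13910.1 and 16364 normalized CPM to 7231 and 8455 (-0.95 ± 0.27) and miR-221-5p from 621 and 661 to 282 and 425 (-0.86 ± 0.23). The call of miR-222-3p was lost when replicate 2 of 2D was left out. miR-221-3p, the abundant arm of the neighbouring hairpin, was not called at 8319 and 9160 against 7020 and 7460 (-0.27 ± 0.26), and 2 of the other scalings called it lower. miR-503-5p, which restrains the cell cycle, fell from 121 and 116 to 46.8 and 70.4 (-1.02 ± 0.27), miR-195-5p rose with a call that other scalings did not give (0.84 ± 0.36), and the other 7 tested members of the miR-15/16 list were not called, at -0.49 to 0.20. miR-195-5p passed the filter only through MCS, so a difference was built into its testing. Among miRNAs outside the lists and chosen after their values were seen, miR-7-5p, a repressor of EGFR, fell from 1699 and 1551 to 404 and 641 (-1.64 ± 0.23), and miR-196a-5p, encoded in HOX clusters, from 1015 and 1054 to 630 and 735 (-0.60 ± 0.23).

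Few arms of the proliferation-linked miR-17-92 cluster and its paralogs were called. Of 10 tested leading arms 1 rose (miR-19b-3p, 0.61 ± 0.23, lost with other scalings) and 1 fell (miR-18a-5p, -0.61 ± 0.24, from 413 and 285 normalized CPM to 207 and 251), and the median was 0.11. The call of miR-18a-5p was kept with every scaling but lost when replicate 1 of 2D or replicate 1 of MCS was left out. Of 7 opposite arms none was called with this scaling and the median was -0.20. With other scalings miR-25-5p (-0.58 ± 0.27 with the first) was called lower with 4 and miR-92a-1-5p with 1. miR-92a-3p, the most abundant of the group, held 2.84% and 3.27% of the counts in 2D and 2.67% and 2.56% in MCS. With the first scaling the list of miR-130, miR-301 and miR-454 had 1 of 7 up and 1 down, the miR-320 list 1 of 4 up, the miR-378 list 0 of 3 called, and the miR-125 list 0 of 2. miR-301b-3p, the rise of the first of these lists, passed the filter only through MCS, so a difference was built into its testing. The rise of miR-320d was lost with every other scaling, and that of miR-301b-3p with the upper quartile of tested miRNAs. That scaling called miR-378a-3p, miR-378a-5p, miR-454-3p and miR-454-5p lower. Library totals did so for miR-378a-5p and miR-454-3p, and TMM factors for miR-378a-5p. The members of all lists together numbered 173, of which 68 rose and 20 fell, with a median of 0.39. Among the 173 miRNAs in no list 35 rose and 20 fell, with a median of 0.08.

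Markers of other cell types were checked in the same libraries. Those of erythroid and myeloid cells summed to at most 3.79 CPM of the library total in any library, with miR-144-3p at 0 in all 4 libraries, and miR-223-3p was not listed. Muscle, liver and neuron markers summed to at most 11.7 CPM, nearly all of it miR-1-3p, which was at 1.39 and 1.30 CPM in 2D and 10.0 and 8.21 in MCS and stayed below the filter. Mesenchymal and endothelial markers summed to between 101 and 120 CPM in every library, mainly from miR-126-3p, which was not called. miR-126-5p rose (0.98 ± 0.34), a call that was lost with other scalings. The lymphoid and other haematopoietic list rose from 107 and 102 CPM to 205 and 191 through miR-142, with miR-155-5p not called (0.50 ± 0.29) and miR-150-5p at 0 in all 4 libraries. The part of other cells in the rise of miR-142 was not tested.

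Of 11 tested entries that resemble fragments of tRNA, ribosomal or small nuclear and nucleolar RNA, 7 rose and 1 fell, beside 29.8% and 11.6% of all tested miRNAs, and the median was 0.98. These counts include miR-7641, which passed the filter only through MCS, and miR-4454, the 1 that fell, which passed only through 2D. Beside miR-1246 and miR-7641, miR-664a-3p went from 9.86 and 11.0 normalized CPM to 32.4 and 37.3 (1.74 ± 0.35) and miR-3607-5p from 82.6 and 60.9 to 147 and 185 (1.21 ± 0.26), and these 4 were called with every scaling. miR-1291 had 49.8 in replicate 1 of 2D and 9.04 in replicate 2, so that its fold change of -0.34 ± 0.33 depends on that library. Whether such counts are miRNAs or degraded structural RNA was not tested.

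Among the tested miRNAs with a matched sequence, 11 pairs, made of 20 miRNAs, were reverse complements over at least 16 bases, and 10 of these pairs had log2 fold changes of the same sign. The pairs were chosen after their values were seen. In some, the ratio of the counts was nearly constant from library to library. miR-103b had 1.05, 1.05, 1.06 and 1.05 times the counts of miR-103a-3p (2D replicates 1 and 2, then MCS replicates 1 and 2), and miR-3184-3p had between 0.982 and 1.07 times those of miR-423-5p. miR-203a-3p had 17.6, 19.9, 19.2 and 20.0 times the counts of miR-203b-5p, and miR-3529-3p had 10.0, 10.5, 11.1 and 10.9 times those of miR-7-5p. Thus miR-3529-3p, whose name belongs to the strand opposite miR-7, carried more counts than miR-7-5p and fell with it, from 17078 and 16294 normalized CPM to 4496 and 6959 (-1.54 ± 0.27). The ratio was less steady for miR-371b-3p to miR-371a-5p (8.10, 9.22, 5.69 and 4.92) and for miR-24-3p to miR-3074-5p (25.9, 21.6, 11.8 and 14.3). Whether strand was used in counting is not given in the sources used here, so the 2 names of such a pair may count the same molecules and are not separate evidence. Of the 11 pairs 5 had both members called in the same direction and 0 in opposite ones.

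**Figure D4:**
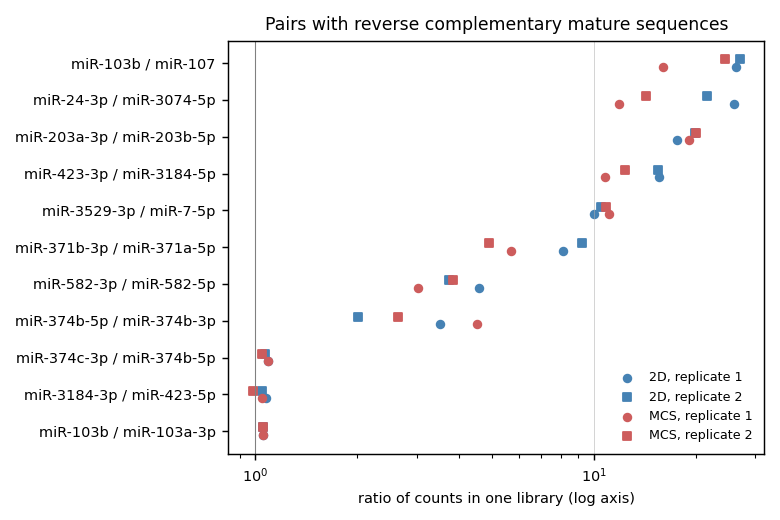
Points give, for each library, the ratio of the counts of 2 miRNAs whose mature sequences are reverse complements over at least 16 bases (log axis), with 2D in blue, MCS in red, replicate 1 as circles and replicate 2 as squares. miR-103b to miR-103a-3p stays near 1.05, miR-3529-3p to miR-7-5p between 10.0 and 11.1, and the pairs of miR-24-3p and miR-371b-3p differ between the cultures.

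Counts were also summed over miRNAs with the same seed, leaving out members with no matched sequence, such as miR-30b-5p and miR-30d-5p. Where all members are in the sum, it does not depend on how reads were divided among them. The 346 miRNAs gave 287 features, 40.8% of which were called, and 34 of these were seed families of at least 2 tested miRNAs, holding 93 miRNAs. Of the 34, 14 rose and 4 fell, and 10 kept the call with every scaling. The largest rise was that of seed UGACCUA (miR-192-5p and miR-215-5p), from 816 and 726 normalized CPM to 3122 and 4050 (2.22 ± 0.26). Next came UCACAGU (miR-27a-3p and miR-27b-3p, 1.62 ± 0.28), GAGAACU (miR-146a-5p and miR-146b-5p, 1.55 ± 0.25), ACAUUCA (miR-181a, miR-181b and miR-181d, 5p arms, 1.43 ± 0.26) and AACACUG (miR-141-3p and miR-200a-3p, 1.23 ± 0.26). Of the families chosen after their values were seen, the other miR-200 seed, AAUACUG, rose from 82291 and 91304 to 156016 and 216330 (1.10 ± 0.33). AAGUGCU (miR-372-3p and miR-373-3p) fell from 148 and 133 to 32.9 and 42.0 (-1.91 ± 0.29), and GCUACAU (miR-221-3p and miR-222-3p) from 22229 and 25524 to 14251 and 15916 (-0.66 ± 0.28). Only the miR-30 seed GUAAACA held members called in opposite directions. The number of called families was 6 without replicate 2 of 2D and 8 without replicate 1 of 2D, against 18 with all 4 libraries.

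A ratio of the 5p to the 3p arm of a hairpin within a library does not change with the scaling. Both arms were tested under 84 hairpin names, of which 70 had their arms annotated to the same loci, 4 to different loci (let-7a, miR-181a, miR-181b and miR-194) and 10 had an arm with no match. By limma on the log2 ratio, 11 of these ratios (13.1%) differed between the cultures at an adjusted p under 0.05, 6 towards the 5p arm in MCS and 5 towards the 3p arm, and 26 did so at an unadjusted p under 0.05. The median absolute change was 0.43, where replicates differed by a median of 0.30, and 50 of the 84 ratios (59.5%) did not overlap between the cultures. Since the spread was pooled over all hairpins, each change has the same SE of 0.32. Over the 196 hairpins that had at least 1 count of each arm in every library, limma called 0, and 21 had an unadjusted p under 0.05. Leaving out replicate 1 of MCS turned the 11 calls into 4, leaving out its replicate 2 into 7, and leaving out replicate 1 of 2D into 5.

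miR-27a changed most. Its 5p arm made up 14.7% and 18.8% of the counts of both arms in 2D and 5.61% and 6.76% in MCS (log2 change -1.61, limma adjusted p = 8.78e-05), and it was the only hairpin of the 84 with the arms called in opposite directions. let-7b moved towards its 5p arm, from 94.3% and 93.5% to 98.1% and 97.5% (1.54), as the guide strand rose and the passenger strand was not called. miR-210 moved towards its 3p arm, with the 5p arm at 5.51% and 4.14% in 2D and 2.01% and 1.51% in MCS (-1.50). miR-32 moved towards its 5p arm, from 29.7% and 18.9% to 46.1% and 39.6% (1.26). In miR-222, whose arms both fell, the 5p arm made up 0.343% and 0.231% of the counts in 2D and 0.138% and 0.105% in MCS (-1.23). miR-191 (1.09) and miR-182 (0.97) moved towards the 5p arm that already dominated in each. miR-222-5p and miR-182-3p passed the filter only through 2D, so a move away from these arms was in part built into their testing. The ratio of miR-181a-5p to miR-181a-3p also rose (0.99), but it is not that of 1 hairpin, since the 5p arm is annotated to MIR181A1 and MIR181A2 and the 3p arm to MIR181A1 alone. miR-181a-2-3p, the arm of the other locus, rose by 1.49 ± 0.31.

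**Figure D5:**
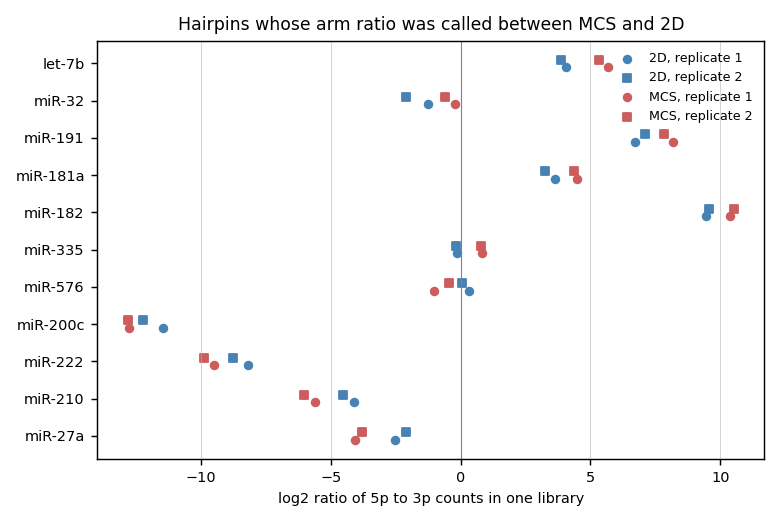
Points give the log2 ratio of 5p to 3p counts in each library for the 11 hairpins whose ratio was called, with 2D in blue, MCS in red, replicate 1 as circles and replicate 2 as squares. Values to the right of 0 mean that the 5p arm is the more abundant, and miR-335 and miR-576 lie on different sides of 0 in the 2 cultures.

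In 4 hairpins, found after the values were seen, the more abundant arm was not the same in both cultures. miR-335, from an intron of MEST, had 47.6% and 46.8% of its counts on the 5p arm in 2D and 64.0% and 63.0% in MCS (log2 change 0.96, limma adjusted p = 0.0267). miR-576 went the other way, from 55.8% and 50.9% to 33.0% and 42.6% (-0.92, limma adjusted p = 0.0329). The ratios of the other 2, miR-151a and miR-628, were not called. Over the 84 hairpins, 58 ratios moved towards the arm that was more abundant on average over the 4 libraries and 26 towards the scarcer. As that average includes MCS, a move can itself decide which arm counts as the more abundant. Both arms rose in 15 hairpins and fell in 4, 1 arm alone was called in 31, and neither in 33. The log2 fold changes of the arms of a hairpin were correlated across hairpins (Pearson's r = 0.74, Spearman's rho = 0.66, n = 84), as a description, since arms share libraries and scaling. 5p arms (n = 154) had a median log2 fold change of 0.22 and 3p arms (n = 142) of 0.27.

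Of 262 hairpins annotated to tested miRNAs, 209 had a position on GRCh37 in the annotation used, so that some clusters, such as miR-17-92 on chromosome 13, are not counted here. Those within 10 kb of each other on 1 strand formed 26 clusters with 87 tested miRNAs. The calls in 15 clusters were all upwards and in 5 all downwards, 5 had none, and 1, the chromosome 19 cluster of miR-23a and miR-27a, had both. Among all tested miRNAs 29.8% rose and 11.6% fell. A miRNA with several loci counts in each of its clusters, as do let-7a-5p, let-7f-5p, miR-181a-5p and miR-181b-5p, so these counts overlap. Some clusters had their only rise in a miRNA with a further locus, as with let-7a-5p beside miR-100-5p and miR-194-5p beside miR-215-5p. The miR-941 hairpins formed a cluster with 1 tested miRNA. Within a cluster the log2 fold changes spread over a median range of 0.96. The chromosome 9 cluster of miR-23b and miR-27b and the chromosome 19 cluster of miR-371a, miR-372 and miR-373 (GRCh37, chr19:54290929-54292027) were called in full, at 4 of 4 and 3 of 3 tested arms. The MIRLET7A3 and MIRLET7B hairpins on chromosome 22 (chr22:46508629-46509648) had 3 of 4 tested arms up, though let-7a also comes from chromosomes 9 and 11. By contrast the miR-106b-25 hairpins in chromosome 7 (chr7:99691183-99691697) had 0 of 6 called and the miR-15b/16-2 hairpins in chromosome 3 (chr3:160122376-160122613) 0 of 4.

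Base composition and abundance are given next for the groups of called miRNAs. Those called higher with every scaling had a median GC content of 40.9% (n = 41 with a sequence) and those called lower 54.5% (n = 38), where all 312 had 47.8%. Of 76 miRNAs under 40% GC, 31 rose and 5 fell, or 15 and 5 with every scaling. Of 64 with 60% or more, 10 rose and 12 fell, or 5 and 12 with every scaling. Over all tested miRNAs 29.8% rose and 11.6% fell, or 14.2% and 11.6% with every scaling. Across miRNAs GC content and log2 fold change had a Spearman's rho of -0.23 (n = 312), as a description. Of 49 miRNAs between 1000 and 10000 mean CPM, 24 rose and 1 fell, or 12 and 1 with every scaling. Of 89 between 10 and 30 CPM, 19 rose and 11 fell, or 11 and 11 with every scaling, to be read against the same shares. This class holds miRNAs that passed the filter through 1 culture alone, such as miR-195-5p and miR-301b-3p, so part of its calls was built into the testing. The GC-rich miR-4488 and miR-4497, at 88.9% and 82.4%, were among the 10 rises with 60% GC or more.

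The filter on the mean let in 11 miRNAs through their MCS level alone, of which 10 rose, and 18 through their 2D level alone, of which 9 fell. Such miRNAs could pass only by being higher in the culture that carried them. Among the 317 with both culture means at 10 CPM or more, 93 rose and 31 fell. Just inside the threshold were miR-195-5p (mean 10.2 CPM), miR-940 (10.3) and miR-301b-3p (10.3), and just outside were miR-2355-3p (9.93), miR-26a-1-3p (9.72) and miR-548az-5p (9.53).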

How the data were processed

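Small RNA of DLD1 cells was sequenced from 2 libraries of 2D and 2 of MCS. The authors clipped the reads (adapters and random end bases), filtered them on length and quality, mapped them to GRCh37 and miRBase, and deposited raw counts per mature miRNA. The submitters' processing notes name CASAVA 1.8.3, cutadapt 1.11, Bowtie2 2.1.0 and edgeR 3.4.2. The handling of strand and of reads that fit several names is not given in the sources used here. The table per library and the joint table were set side by side at 12572 values, and 0 differed. A further 15 entries name no miRNA and held 0 counts in DLD1. The totals, from 15814475 to 25477315, limit precision less than the spread between 2 replicates does. Whether the replicates came from separate cultures is not said beyond the label, so p-values measure the spread between these libraries.

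Samples were grouped by the labels. Counts of miRNAs with an average of 10 CPM or more were tested with edgeR 4.0.16 (quasi-likelihood test, R 4.3.3), with 5 scalings, adjusted over all 346 miRNAs by Benjamini-Hochberg. Seed family sums took the same test, and arm ratios, log2((5p + 0.5)/(3p + 0.5)), limma 3.58.1. Tests were checked on simulated counts. SE values come from these fits. The alternatives were the scalings, DESeq2 1.42.0, edgeR's exact test, other filters and thresholds, all 8 libraries in 1 fit, the replicate number as a block, an arm pseudocount of 5, an edgeR test of arm and culture, and each library left out in turn.

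The miRNAs named are the 10 largest rises and falls called with all scalings and not overlapping, the 10 most abundant, the members of the lists, the 8 hairpins with the smallest adjusted p of the arm ratio and the 6 called seed families with the largest change. These rules, the members and the lists were chosen with earlier results of these data known. Sequences come from RefSeq and hairpin positions from GENCODE release 44 lifted to GRCh37. Python 3.11.15 and matplotlib 3.10.9 were used for the other steps.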

Additional observations from a re-analysis of the deposited data

Results flagged for a closer look

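Below the filter of 10 CPM lay 1434 miRNAs, 1146 of them with at least 1 count, which together took 0.132% of the DLD1 counts and entered no comparison. Among these, 7 had 0 counts in both 2D libraries and at least 10 in both MCS libraries, and 5 had the reverse pattern. The lower of the MCS counts was 76 for miR-4492, with 153 in the other library, and 43 for miR-552-3p, with 74 in the other. It was 17 for miR-508-3p, 16 for miR-146a-3p, 13 for miR-5091, 12 for miR-5694 and 10 for miR-1323. A count of 0 in a library allows up to 3 counts, and no fold is given. miR-146a-3p is the opposite arm of miR-146a-5p, which rose. The miRNAs with the reverse pattern were miR-1229-5p, miR-1257, miR-3162-5p, miR-498 and miR-610, with between 10 and 33 counts in the 2D libraries. No test was run on these values.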

How the results depend on the processing

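The 143 called miRNAs became 30 with all 8 libraries in 1 fit (23 higher, 7 lower) and 91 to 123 with 1 library left out (51 to 81 higher, 32 to 47 lower). The number higher, 103, was 60 with library totals and 49 with the upper quartile of tested miRNAs. The number lower, 40, was 62 with TMM factors, 83 with library totals, 93 with the upper quartile of tested miRNAs and 65 with DESeq2. The 89 called with every scaling became 27 to 90 with 1 library left out (12 to 49 higher, 15 to 41 lower). The 18 seed families became 6 to 15 (4 to 12 higher, 2 to 4 lower), and the 14 higher families were 8 with library totals and 6 with the upper quartile of tested miRNAs. The 11 arm ratios became 4 to 10 with 1 library left out (1 to 4 towards the 5p arm, 2 to 7 towards the 3p arm) and 0 in either direction with at least 1 count of each arm in every library, and those towards the 3p arm were 3 with both arms at 10 CPM in every library. The labels share only a replicate number between the cultures, and same-numbered deviations from the culture means had a correlation of 0.32. With the replicate number as a block, 139 miRNAs and 18 arm ratios were called (10 towards the 5p arm, 8 towards the 3p arm). Without replicate 1 of 2D, miR-1291 reversed to a log2 fold change of 1.24, and without replicate 2 of 2D it was -1.22. The causes were not tested. With all 8 libraries in 1 fit 14 of the 20 largest rises and falls kept their call, and with at least 10 CPM in every library 11 were tested and kept it.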
